A study of Mus musculus with 28 samples.

Results

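A set of 4909 regions of mouse chromosomes 1 to 19 is described here that carried H3K27ac and H3K4me1 in lung tumours, lay away from H3K4me3 and fell outside every H3K79me2 peak of the series. They were drawn from 25327 regions of 200 bp to under 15 kb that H3K27ac peaks covered in both replicates 3 and 4, after gaps of up to 1 kb were closed. They were chosen by measured peaks: an H3K4me1 peak in both of these replicates, no overlap with an H3K79me2 peak in any of 4 libraries, and no H3K4me3 peak of any of 4 libraries within 1 kb. H3K27ac and H3K4me1 of replicates 3 and 4 are therefore given only as a description. The regions are called outside regions below. A region is said to be retained in a library when at least 1 bp of it lies under a peak of that library.

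The series mapped 6 histone marks by ChIP-seq, which sequences the DNA bound by antibodies to a modified histone, with 4 libraries per mark. Tumours were raised by Ad-CMV-Cre, an adenovirus that expresses Cre recombinase from the CMV promoter, in K-RasLSL-G12D mice or in K-RasLSL-G12D;Mll4fl/fl mice, so all of them carry the Cre-activated K-Ras allele. The CMV promoter acts in many cell types, so the labels set no cell of origin, and bulk tumour tissue holds stromal and immune cells too. Fewer cells of a type and a lower mark per cell cannot be told apart in such tissue. The age of the mice is not given in the labels. The deposited names of replicates 1 and 2 carry the prefix MLL and those of replicates 3 and 4 the prefix RAS. The labels do not tie any library to a genotype, so libraries are named by replicate number, and no test between prefixes was made.

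Enhancers are stretches of regulatory DNA that raise the transcription of genes at a distance. H3K4me1 marks enhancers that are active or primed, and H3K27ac, placed by the acetyltransferases CBP and p300, marks the active ones. H3K4me3 is the mark of promoters, and H3K79me2, placed by Dot1l, lies within the bodies of transcribed genes. Where the regions described here lie relative to genes was not analysed. Mll4, also called Kmt2d, is one of the enzymes that place H3K4me1 at enhancers.

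The libraries differed widely in what was called. H3K27ac covered 19.9 and 22.1 Mb of chromosomes 1 to 19 in replicates 1 and 2, with median peak widths of 234 and 216 bp, but 114.5 and 112.4 Mb in replicates 3 and 4, with median widths of 2064 and 1713 bp. H3K4me1 covered 15.5, 24.9, 46.8 and 55.6 Mb in replicates 1 to 4. Read depth is unknown for all libraries, and less called sequence leaves less chance of retention, so shares are set beside those of other regions in the same library. The H3K27ac replicate 2 library stands apart: 82.7% of its peaks touched an H3K79me2 peak of replicate 2, against 36.7% to 43.2% in the other 3 H3K27ac libraries. At regions inside H3K79me2 its coverage was highest 4300 bp from the centre (16.1%) and lower at the centre (13.2%), while that of the other H3K27ac libraries was highest within 200 bp of the centre. Its label was kept as given, and whether it is right was not tested. Since the outside regions exclude H3K79me2, the main values that rest on this library are given beside those of replicate 1. The part of this overlap in the results was not tested.

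Of the 25327 H3K27ac regions, 13878 (54.8%) overlapped H3K4me1 in both replicates 3 and 4, and 9071 of these had no H3K4me3 nearby. These distal regions split into 4909 outside regions (19.4% of all H3K27ac regions), 2195 regions with H3K79me2 in all 4 libraries, called inside regions, and 1967 with H3K79me2 in 1 to 3 libraries. More distal regions were thus free of H3K79me2 than had it in all 4 libraries.

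The outside regions were 2811 bp long at the median, with quartiles of 1714 and 4665 bp, close to the 2842 bp of the inside regions. The nearest H3K4me3 peak of any library was 28922 bp away at the median, and 12680 bp away for the inside regions. The nearest H3K79me2 peak lay 21745 bp away at the median. The regions came in loose groups: 1553 of them (31.6%) had another outside region within 10 kb, 2133 had one between 10 and 100 kb away, and 1223 (24.9%) stood alone by more than 100 kb. Among the H3K27ac regions of each chromosome, the outside regions made up from 14.5% on chromosome 5 to 29.3% on chromosome 18, with a median of 18.6%.

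At the edges of the choice, the shortest outside region, chr6:28500158-28500372, was 215 bp long, and the nearest region left out for length alone had 155 bp (chr10:12990985-12991139). The longest, chr3:19408230-19423184, had 14955 bp, beside 15018 bp for chr6:135262595-135277612, which was left out. The region closest to H3K4me3, chr14:76241663-76242695, had 1040 bp to the nearest peak, and chr19:9144018-9158614 missed the limit at 998 bp. Only 2 regions failed by being too short and 76 by being too long, while 621 failed by H3K4me3 alone. Positions are those of the deposited files, counted from 1, in the mm9 build that the submitters' processing notes name. Genes at these positions were not analysed here, because no annotation of mm9 was used.

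H3K27ac was retained at nearly as many outside regions as it was missing from in replicate 1, and at few in replicate 2. An H3K27ac peak was present at 2422 outside regions (49.3%) in replicate 1, where 59.2% of all 25327 H3K27ac regions had one. In replicate 2 it was present at 410 (8.35%), against 30.1% of all H3K27ac regions. Among the 13878 H3K27ac regions with H3K4me1 in replicates 3 and 4, the shares were 64.0% in replicate 1 and 38.85% in replicate 2. In both libraries the outside regions were thus below either background, by more in replicate 2. The mean of both was 28.8% ± 29.0 (SD, n = 2), a spread as large as the mean itself.

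Both libraries had H3K27ac at 366 outside regions (7.46%, background 25.4%), and neither had it at 2443 (49.8%, background 36.2%). Among the 13878 regions with H3K4me1, the shares were 32.4% with both and 29.5% with neither. Of the 410 regions found in replicate 2, 89.3% were also found in replicate 1, close to the 84.6% among all H3K27ac regions found in replicate 2 and above the 64.6% among inside regions. The regions with H3K27ac in both libraries were long, at a median of 6262 bp against 2066 bp for those with neither.

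H3K27ac peaks in replicates 1 and 2 were narrow at outside regions, as in these libraries as a whole. Where replicate 1 had H3K27ac, it was split into 2.84 peaks per region on average, each 223 bp wide at the median, and covered 13.3% of the region at the median, against 23.0% for all H3K27ac regions and 14.5% for inside regions. In replicate 2 there were 1.45 peaks of 185 bp per region, covering 4.13%, against 16.1% for all H3K27ac regions and 16.4% for inside regions. In replicates 3 and 4, which chose the regions, the same stretch was held by 1.24 and 1.31 peaks with median widths of 2605 and 2514 bp.

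H3K4me1 was retained in the opposite order of the libraries. It was present at 1400 outside regions (28.5%) in replicate 1 and at 2556 (52.1%) in replicate 2. Among the 13878 H3K27ac regions with H3K4me1 in replicates 3 and 4, the shares were 53.8% and 71.7%, so the outside regions lay below the background in both libraries. Both libraries kept H3K4me1 at 1151 outside regions (23.4%, background 49%) and neither at 2104 (42.9%, background 23.6%). Of the regions with H3K4me1 in replicate 1, 82.2% also had it in replicate 2, below the 91.2% among the 13878 regions and the 93.2% among inside regions.

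The mean retention of H3K4me1 was 40.3% ± 16.7 (SD, n = 2). It exceeded that of H3K27ac by 11.4 points (exact two-sided permutation p 0.667, adjusted 1 over 6 tests, with 0.333 the smallest p that 2 libraries against 2 can give). The direction differed between replicates: H3K4me1 was below H3K27ac in replicate 1 and above it in replicate 2. Without the H3K27ac replicate 2 library the difference was -9.04 points. The difference was smaller than the spread between libraries.

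**Figure D1:**
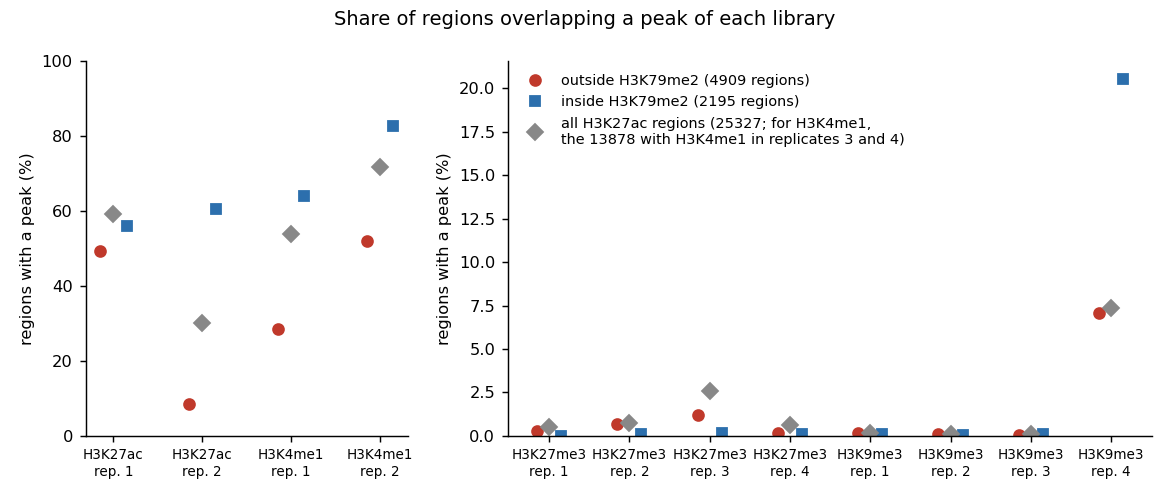
Percent of regions that overlap a peak of each library, for outside regions (circles), inside regions (squares) and background regions (diamonds), each point being 1 library; the left axis runs to 100% and the right axis to about 20%. The background is all 25327 H3K27ac regions, or for H3K4me1 the 13878 with H3K4me1 in replicates 3 and 4. H3K27ac replicate 1 separates the classes little (49.3%, 55.9% and 59.2%), while the outside regions are lowest in H3K27ac replicate 2 and in both H3K4me1 libraries.

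The combinations of marks in replicates 1 and 2 show how uneven retention was. No peak of either mark was found in either library at 1389 outside regions (28.3%), against 14.2% of the 13878 H3K27ac regions with H3K4me1. All 4 libraries of both marks had a peak at only 173 (3.52%), against a background of 24.8%. In replicate 1 alone, both marks were present at 1035 outside regions (21.1%), 43.1% of the 13878 regions and 43.3% of inside regions, and neither mark at 2122 outside regions (43.2%), 25.3% of the 13878 regions and 23.3% of inside regions. H3K4me1 in either library with H3K27ac in neither was found at 1054 outside regions (21.5%), 15.3% of the 13878 regions and 15.7% of inside regions. All of these carried H3K27ac in the replicates that chose them, so the missing peaks do not show a primed enhancer. H3K27ac without any H3K4me1 was found at 715 (14.6%), against 9.45% of the 13878 regions and 6.10% of inside regions. Both counts rest in part on the H3K27ac replicate 2 library, which has few peaks at outside regions. The largest combination after no peak at all was H3K27ac in replicate 1 with H3K4me1 in both, at 709 outside regions (14.4%) and 10.8% of inside regions. H3K4me1 in replicate 2 alone followed with 704 (14.3%), against 6.92% of inside regions, and H3K27ac in replicate 1 alone with 620 (12.6%), against 1.46%. Shares over the 13878 regions were not computed for these last combinations. Whether they are particular to the outside regions is thus not known. Regions without any peak were shorter, with a median of 1942 bp, than those with all 4 (6552 bp).

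Regions with one mark more often had the other in the library of the same replicate number. In replicate 1, H3K4me1 was present at 42.7% of the 2422 outside regions with H3K27ac and at 14.7% of the 2487 without it. In replicate 2 the shares were 73.4% of 410 and 50.1% of 4499. Among the 13878 regions the same shares were 67.3% and 29.7% in replicate 1 and 89.3% and 60.4% in replicate 2. Regions with H3K27ac were longer in both replicates (medians of 4026 against 2077 bp in replicate 1), and the part of length in this was not tested.

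Around the region centres, coverage was compared with that 10 kb away. In replicate 1, H3K27ac covered 11.2% of outside region centres and 3.17% of points 10 kb away, a ratio of 3.54, and H3K4me1 covered 5.72% and 1.497%, a ratio of 3.82. H3K4me1 in replicate 2 covered 11.3% of centres and 2.30% at 10 kb (4.92-fold). H3K27ac in replicate 2 covered 0.652% of centres and 1.22% of points 10 kb away, but 0.367% and 0.285% at 2.5 kb on either side. Its coverage was thus higher at the centres than 2.5 kb away and lower than at 10 kb. At inside regions the ratio of centre to 10 kb was higher in that library (1.15 against 0.533) and lower in the other 3: 2.165 for H3K27ac in replicate 1, and 3.21 and 3.17 for H3K4me1 in replicates 1 and 2. In replicates 3 and 4, H3K4me1 covered 42.0% and 49.7% of the centres of outside regions, and 62.0% and 67.0% of those of inside regions.

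**Figure D2:**
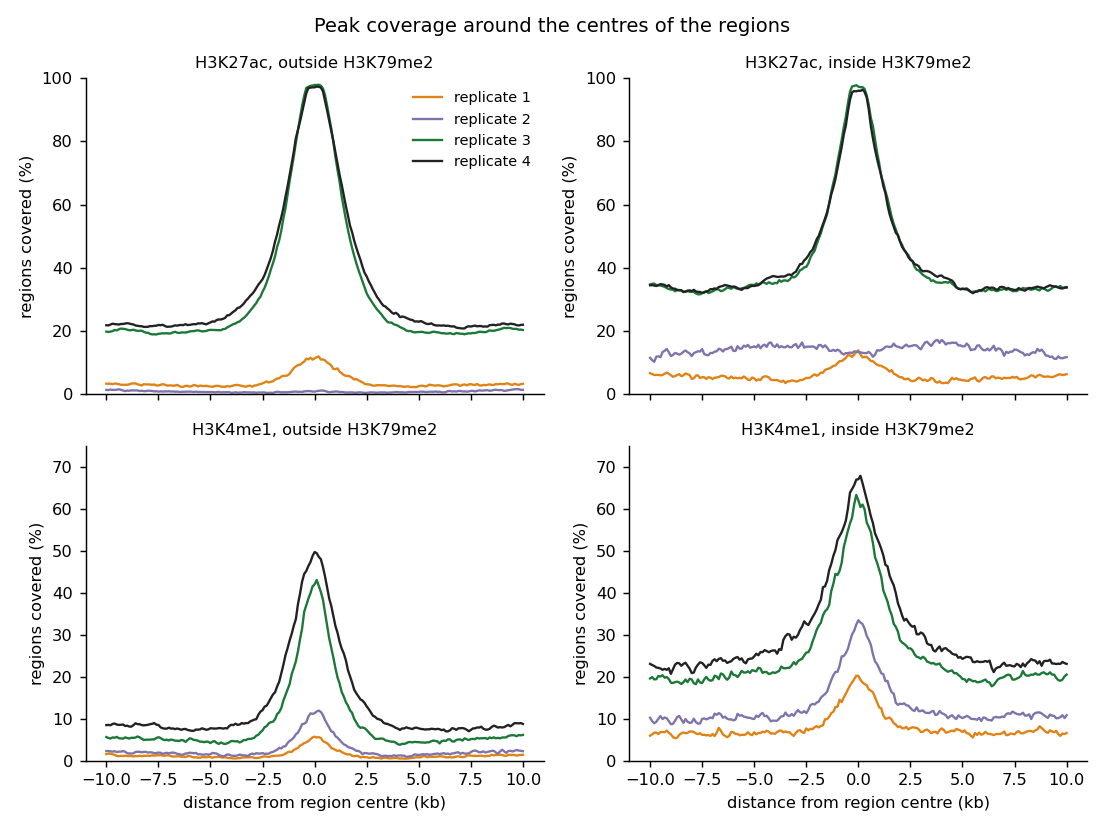
Percent of regions covered by a peak at each distance from the region centre (x axis, in kb, steps of 100 bp), with 1 line per library, for H3K27ac (top) and H3K4me1 (bottom) at outside regions (left) and inside regions (right); the y axis ends at 100% for H3K27ac and at 75% for H3K4me1. H3K27ac replicate 2 stays low at the outside regions, with 0.652% in the centre and 1.22% at 10 kb, while H3K4me1 of all 4 replicates has a central peak.

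Outside and inside regions were then compared in the same libraries, so that both were read from the same peak lists. H3K4me1 was retained at 28.5% of outside against 64.1% of inside regions in replicate 1, and at 52.1% against 82.6% in replicate 2. The differences of -35.6 and -30.5 points were alike in both libraries, with a mean of -33.0 ± 3.61 points (SD, n = 2; exact two-sided sign-flip p 0.5, the smallest that 2 libraries can give, adjusted 1). In replicates 1 and 2, 60.5% and 58.0% of all H3K4me1 peaks touched an H3K79me2 peak of the same replicate. The shares in replicates 3 and 4 were 52.0% and 44.0%. The part of this overlap in the H3K4me1 differences was not tested. H3K27ac gave -6.56 points in replicate 1 (49.3% against 55.9%) and -52.1 points in replicate 2 (8.35% against 60.4%). Its mean of -29.3 ± 32.2 points (SD, n = 2; exact sign-flip p 0.5, adjusted 1) was -6.56 without the replicate 2 library, most of whose peaks lie on H3K79me2. None of the 6 tests passed an adjusted p of 0.05, and none had an unadjusted p under 0.05.

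Outside regions held less H3K4me1 already in the replicates that chose them. H3K4me1 covered 28.7% and 38.9% of their bases in replicates 3 and 4, against 51.6% and 59.2% of the bases of inside regions. As a description, regions were sorted into bands by this coverage, which had also served to choose them. Where H3K4me1 had covered 25 to 50% of the bases, it was retained in replicate 1 at 27.9% of 2241 outside and 57.0% of 676 inside regions. Where it had covered 75 to 100%, it was retained at 38.9% of 208 outside and 77.0% of 578 inside regions. In replicate 2 the same 2 bands gave 54.6% against 78.7%, and 64.4% against 92.4%. In all 5 bands and both libraries the outside share was the lower one, though the band under 10% held only 8 inside regions. Lengths differed within bands too, with medians of 1443.5 bp outside and 2024.5 bp inside at 75 to 100%. The part of starting H3K4me1 and of length in the difference was not tested.

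**Figure D3:**
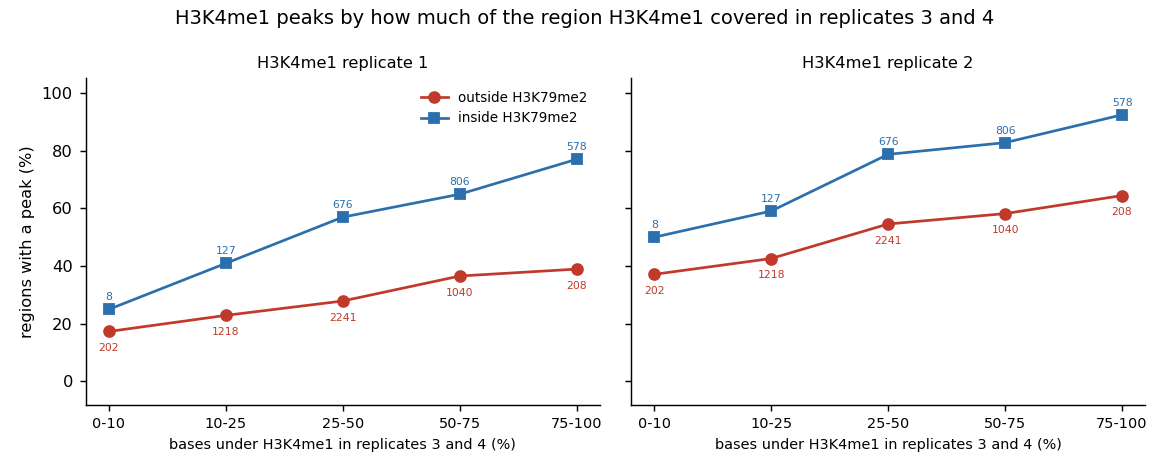
Percent of regions with an H3K4me1 peak in replicate 1 (left) and replicate 2 (right) by the percent of the region's bases under H3K4me1 in replicates 3 and 4, for outside regions (circles) and inside regions (squares), with the number of regions beside each point. The outside points lie below the inside points in every band, as at 75 to 100% in replicate 1 (38.9% and 77.0%).

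Sorting by the best H3K4me1 score of a region gave the same order. In the highest of 4 equal classes of replicate 3 scores, H3K4me1 was retained in replicate 1 at 49.3% of 751 outside and 79.6% of 1025 inside regions, and in replicate 2 at 78.3% and 93.2%. In the lowest class the shares were 16.7% of 1566 outside and 37.1% of 210 inside regions in replicate 1, and 37.0% and 52.9% in replicate 2. The score is the authors' own value per peak and was used only for this ranking. H3K27ac in replicate 1 did not follow this order. From the lowest to the highest class it was present at 40.8%, 47.7%, 54.1% and 62.7% of outside regions and at 34.3%, 42.5%, 53.9% and 66.3% of inside regions, so the outside share was the higher one in 3 of 4 classes. In the third class the shares were nearly equal (54.1% and 53.9%). By replicate 4 scores the shares were 43.1%, 50%, 49.9% and 58.7% of outside regions, and 37.5%, 48.6%, 58.5% and 62.8% of inside regions. There the outside share was the higher one in the lower classes only. By H3K4me1 coverage, it was the higher one in the lowest 2 of 5 bands. These had 71.3% of 202 outside and 62.5% of 8 inside regions, then 56.5% of 1218 and 55.9% of 127.

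The choice also used H3K79me2 and H3K4me3 of replicates 1 and 2, the replicates in which retention was read. With these marks read in replicates 3 and 4 alone, there were 5356 outside and 3086 inside regions, and H3K4me1 was retained at 30.4% against 63.9% in replicate 1 and at 53.9% against 81.3% in replicate 2. H3K27ac in replicate 1 gave 50.1% against 54.7%. The outside share was again the lower one in each of these libraries.

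Retention of H3K4me1 rose in steps with the number of libraries that had H3K79me2 at a distal region. In replicate 1 it was 28.5% with none, 42.0% with 1 (481 regions), 52.7% with 2 (586), 63.2% with 3 (900) and 64.1% with 4. In replicate 2 the steps were 52.1%, 67.4%, 70.0%, 81.0% and 82.6%. H3K27ac in replicate 1 had no such steps, at 49.3%, 56.1%, 49.7%, 53.4% and 55.9%, while H3K27ac in replicate 2 went from 8.35% through 22.5%, 35.2% and 51.0% to 60.4%.

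H3K27ac was found more often at longer regions. In replicate 1 it was retained at 13.2% of the 372 outside regions under 1 kb, 27.4% of those from 1 to 2 kb, 46.7% from 2 to 4 kb, 73.5% from 4 to 8 kb and 89.5% of the 381 from 8 to 15 kb. Inside regions of the same lengths gave 20.2%, 32.7%, 56.7%, 77.4% and 92.9%, higher in every length band. H3K4me1 in replicate 1 rose less with length, from 15.1% to 42.3% at outside regions and from 48.2% to 77.3% at inside regions. A longer region offers more bases for an overlap of 1 bp, and this part was not tested.

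**Figure D4:**
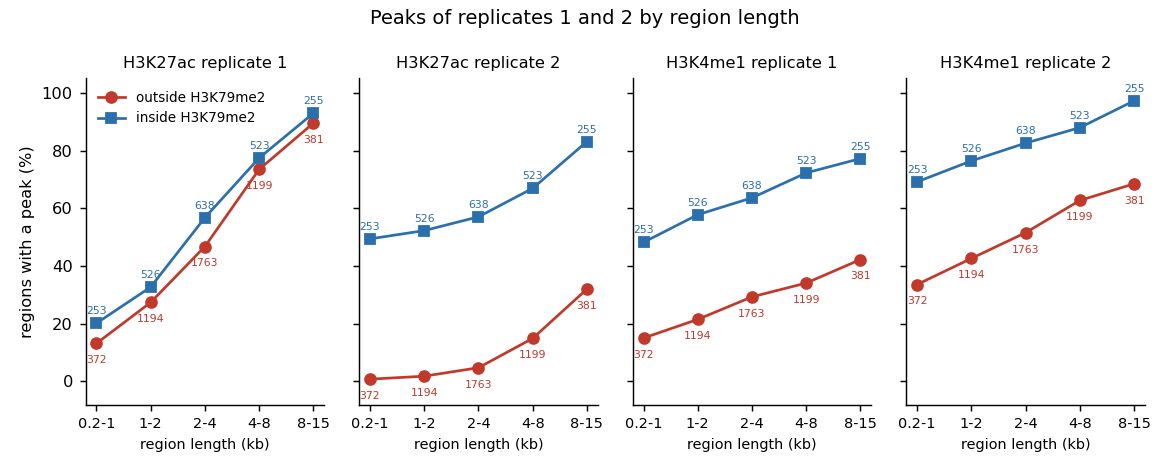
Percent of regions with a peak in 4 libraries (H3K27ac and H3K4me1, replicates 1 and 2) by region length in kb, for outside regions (circles) and inside regions (squares), with the number of regions beside each point. The classes lie close together for H3K27ac replicate 1, where both reach about 90% at 8 to 15 kb (89.5% and 92.9%), and far apart in the other 3 panels.

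Retention also followed the strength of H3K27ac in the replicates that chose the regions. Between the lowest and the highest of 4 equal classes of the best H3K27ac score in replicate 3, the share with H3K27ac in replicate 1 went from 20.0% to 83.2%, that in replicate 2 from 1.14% to 24.3%, and that with H3K4me1 in replicate 1 from 18.8% to 39.5%. Ranking by replicate 4 gave 23.1% to 78.0% for H3K27ac in replicate 1. Regions of the highest class were also longer (5954 against 1356 bp at the median for replicate 3).

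Retention varied little with the distance to H3K4me3. Outside regions 1 to 5 kb from H3K4me3 had H3K27ac in replicate 1 at 47.2% and H3K4me1 in replicate 1 at 29.5%, and those over 100 kb away at 48.8% and 28.0%. Regions within 1 kb of an H3K79me2 peak had H3K4me1 at 33.2% and 59.8% in replicates 1 and 2, and those over 200 kb away at 21.3% and 42.9%. Even the nearest outside regions thus lay well below the inside regions. Regions with another outside region within 10 kb had H3K27ac in replicate 1 more often (56.9%) than those that stood alone by more than 100 kb (40.9%), and were longer (3196 against 2476 bp at the median).

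To describe how far single libraries overlap, the choice was applied to 1 replicate at a time. It found 1401 regions in replicate 1, 231 in replicate 2, 6902 in replicate 3 and 7899 in replicate 4. Of the replicate 3 regions, 83.3% had H3K27ac in replicate 4, 41.8% in replicate 1 and 6.24% in replicate 2, and H3K4me1 was present at 76.3%, 24.1% and 46.2%. Of the replicate 1 regions, 92.65% and 88.5% had H3K27ac in replicates 3 and 4, but only 17.5% had it in replicate 2. The regions of replicate 2 had H3K27ac in replicate 1 at 87.9% and in replicates 3 and 4 at 97.8% and 98.7%. Regions chosen in replicates 1 or 2 were thus mostly also marked in replicates 3 and 4, whose H3K27ac peaks cover far more sequence. Shares over all H3K27ac regions of each choosing replicate were not computed. Whether such overlap is particular to the chosen regions was therefore not tested. Chosen in replicates 1 and 2 together, there were 94 regions of 552.5 bp at the median, and 98.9% and 100% of them had H3K27ac in replicates 3 and 4.

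**Figure D5:**
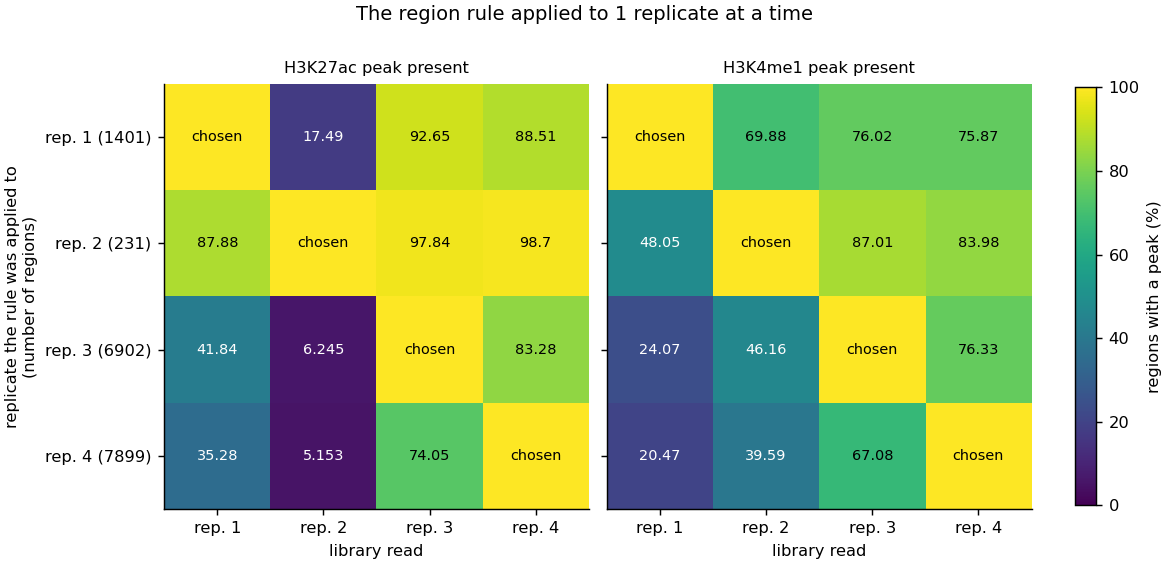
Percent of regions with an H3K27ac peak (left) or an H3K4me1 peak (right) in each library (columns) when the choice is applied to 1 replicate (rows, with the number of regions found); colour runs from 0 to 100% and the replicate that chose the regions is marked. The rows of replicates 1 and 2 are high in the columns of replicates 3 and 4, such as 92.65% for H3K27ac, while the rows of replicates 3 and 4 are low in the columns of replicates 1 and 2.

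The repressive marks played no part in the choice. H3K27me3, the mark of Polycomb repression, was present at 14, 33, 60 and 8 outside regions in replicates 1 to 4 (0.285%, 0.672%, 1.22% and 0.163%), while 0.478%, 0.746%, 2.59% and 0.636% of all H3K27ac regions had it. The outside regions were below this background in every replicate. Inside regions had it less often still, at 0% to 0.182%, and the difference of 0.495 ± 0.419 points (SD, n = 4) was positive in 4 of 4 replicates (exact two-sided sign-flip p 0.125, the smallest that 4 libraries can give, adjusted 0.75). The inside regions were chosen to carry H3K79me2, which few H3K27me3 peaks touched in the same replicate (0.304% to 1.13% of them). The direction of this difference was thus partly set by the choice, and it is given only as a description. At 24 outside regions (0.489%) 2 or more libraries had H3K27me3, against 0.995% of all H3K27ac regions. Regions 1 to 5 kb from H3K4me3 had H3K27me3 in any library at 4.37%, and those beyond 100 kb at 0.749%.

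H3K9me3, the mark of constitutive heterochromatin, was present at 7, 5 and 2 outside regions in replicates 1 to 3 (0.143%, 0.102% and 0.0407%; background 0.134%, 0.118% and 0.0948%) but at 346 (7.05%; background 7.37%) in replicate 4. Among the 13878 H3K27ac regions with H3K4me1 the replicate 4 share was 12.7%, so the outside regions were near one background and below the other. In replicate 4, the share of outside regions with H3K9me3 rose from 1.64% to 21.9% between the lowest and the highest of 4 equal classes of the H3K4me1 score in replicate 4, and that of inside regions from 2.34% to 38.4%. The outside regions of these classes also differed in length (2171 and 4209 bp at the median), and H3K9me3 rose from 2.69% to 17.6% between the shortest and the longest of the 5 length bands. The part of length in this was not tested. Over the libraries, H3K27me3 and H3K9me3 differed by -1.25 points (exact permutation p 1, adjusted 1), and by 0.631 points when replicate 4 was not read for these marks at the same regions. The H3K9me3 shares of outside and inside regions differed by -3.36 ± 6.76 points (SD, n = 4; exact sign-flip p 0.875, adjusted 1). This difference was -13.5 points in replicate 4 and between -0.0504 and 0.0563 points in the other replicates. It was 0.0191 points when replicate 4 was not read at the same regions.

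Single regions show these patterns base by base. The longest outside region with both marks in replicates 1 and 2 was chr8:126714175-126729039, of 14865 bp. H3K27ac covered 1875, 194, 14865 and 14865 bp of it in replicates 1 to 4, and H3K4me1 174, 390, 3156 and 8754 bp. Retention here meant small islands in replicates 1 and 2 within a stretch that was acetylated throughout in replicates 3 and 4. The next longest, chr8:14991320-15005885, kept more H3K4me1, with 2155, 3275, 6689 and 10361 bp in replicates 1 to 4, and had 3592, 247, 14566 and 14510 bp of H3K27ac. At chr15:10658789-10673321 and chr13:56691963-56705647 H3K27ac covered 3458 and 2536 bp in replicate 1 and 186 and 462 bp in replicate 2.

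The longest region with neither mark in replicates 1 and 2 was chr10:127329183-127343136, of 13954 bp, 108732 bp from H3K4me3 and 128778 bp from H3K79me2. H3K27ac covered 13945 and 13954 bp of it in replicates 3 and 4 and H3K4me1 581 and 4451 bp. A long region thus had no peak of either mark in replicates 1 and 2, while the median length of regions without any peak was 1942 bp. The others of this kind were chr1:82756650-82770413, chr1:120584897-120596559 and chr16:31458237-31469275, of 13764, 11663 and 11039 bp. In the last, H3K4me1 covered 3360 and 3227 bp in replicates 3 and 4, though no H3K4me1 peak was present in replicates 1 and 2.

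On chromosome 1 neighbours behaved differently. The region chr1:82756650-82770413 had no H3K27ac in replicates 1 and 2, while chr1:82773497-82786024, 3083 bp further on, had 1963 and 453 bp, and neither had H3K4me1 there. In replicates 3 and 4 H3K27ac covered 12076 and 13764 of 13764 bp in the first, and 12479 and 12416 of 12528 bp in the second. The second belongs to the longest regions with H3K27ac in both but no H3K4me1 in replicates 1 and 2, as do chr3:19408230-19423184, chr18:74798060-74811760 and chr9:99581757-99593686. In chr3:19408230-19423184, the longest outside region of all, H3K27ac covered 2960 and 279 bp in replicates 1 and 2, and H3K4me1 2113 and 2784 bp in replicates 3 and 4. Outside regions with this pattern numbered 77 (1.57%), beside 1.98% of the 13878 regions and 1.37% of inside regions.

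The reverse pattern, H3K4me1 in both replicates 1 and 2 with no H3K27ac, was found at 254 outside regions (5.17%), beside 5.49% of the 13878 regions and 7.52% of inside regions. The longest was chr8:122959299-122969898, of 10600 bp, where H3K4me1 covered 1208, 933, 2881 and 5756 bp in replicates 1 to 4 and H3K27ac 9439 and 10068 bp in replicates 3 and 4. It was followed by chr10:93408118-93417118, chr11:75670746-75679690 and chr2:27785511-27793042. In chr2:27785511-27793042 H3K4me1 covered 6598 and 5747 of 7532 bp in replicates 3 and 4, and 410 and 706 bp in replicates 1 and 2. At all 4 regions H3K4me1 covered fewer bases in replicates 1 and 2 than in replicates 3 and 4.

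The densest group lay at chr8:11247242-11305400, where 9 outside regions held 26400 bp. H3K4me1 was present at 8 and 9 of them in replicates 1 and 2. H3K27ac was present at 5 in replicate 1 and at 8 in replicate 2, a library that had it at only 8.35% of all outside regions. In the region with the most neighbours, chr8:11257156-11263294, H3K27ac covered 481, 1427, 5668 and 6139 bp in replicates 1 to 4, so that replicate 2 exceeded replicate 1. The second group, chr12:80958579-81048327, had 8 regions and 48146 bp, and there H3K27ac was present at 8 regions in replicate 1 and 2 in replicate 2, and H3K4me1 at 4 and 6.

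The regions with repressive marks in 2 or more libraries are named here by length. The longest with H3K27me3 were chr15:100576550-100588746, where it covered 297 and 1062 bp in replicates 1 and 2, chr17:24124811-24136969, with 395 and 1760 bp in replicates 2 and 3, and chr2:30454819-30461565, with 827 and 3325 bp in replicates 2 and 3. In the last, H3K27me3 in replicate 3 covered 3325 of 6747 bp, all of which H3K27ac covered in replicate 3, and peaks of bulk tissue do not tell whether both marks sit in the same cells. The longest with H3K9me3 in 2 or more libraries were chr10:86287187-86301167 (669 bp in replicate 1 and 274 bp in replicate 4), chr1:82756650-82770413 (156 bp in replicate 2 and 371 bp in replicate 4) and chr7:132677622-132687618 (428 and 309 bp in replicates 1 and 2). Only 8 outside regions were of this kind, 0.163% of them, near the background of 0.166%.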

How the data were processed

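Histone marks were measured by ChIP-seq with 3 mg of lung tumour per antibody, after 10 min in 1% paraformaldehyde (37 °C) and shearing to 250 to 500 bp, per the labels' protocols. The authors deposited 1 list of MACS peaks per library, 24 in all, with a score per peak whose lowest value was 50. The submitters' processing notes name CASAVA 1.7, Bowtie, MACS, deepTools and mm9. Settings and the control used are not given in the sources used here. Libraries of input DNA (4 samples) were not used here. The score was used only for ranks and minimums. Libraries were grouped by mark and replicate number from their titles. Whether replicates came from separate mice is not stated, so p-values concern only these libraries and not a wider set of mice. Regions and overlaps were computed in Python 3.11.15 with NumPy 2.4.6, and the step recovered 100% of the regions expected among 2000 simulated ones. Shares were compared over libraries by exact permutation or sign-flip tests with Benjamini-Hochberg adjustment over 6 tests. Named were the 4 longest regions of each of 4 patterns (both marks, neither, or 1 mark alone in both replicates 1 and 2), the 3 longest with H3K27me3 and the 3 longest with H3K9me3 in 2 or more libraries, the 2 with the most neighbours within 50 kb, and those at each threshold. The members and lists were chosen with earlier results of these data known. Alternatives are in the closing section.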

Additional observations from a re-analysis of the deposited data

Results flagged for a closer look

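In 4 sets of 4 libraries (H3K27me3 and H3K9me3 at outside and at inside regions), the library farthest from its neighbours was examined by Dixon's criterion, which chance passes in about 1 of 20 sets. Both H3K9me3 sets had such a library, replicate 4 in each case. It had an H3K9me3 peak at 7.05% of outside regions, against 0.0407% to 0.143% in the others, and at 20.5% of inside regions, against 0.0456% to 0.0911%. In the same library, 36.5% of all H3K9me3 peaks overlapped H3K79me2 peaks of replicate 4, against 6.03% to 7.11% in the other 3 replicates. On the outside regions, 350 of its 387 H3K9me3 peaks (90.4%) overlapped an H3K4me1 peak of replicate 4, a mark that the choice of regions required there and that covered 38.9% of their bases.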

How the results depend on the processing

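Of 107 values under alternatives, 96 kept the direction of a difference, stayed within 1 SD between libraries for a retention, or within 1.5 times for a number of regions. With these few libraries, 5 of the 6 differences could not reach p 0.05 under any alternative, so this count says nothing about their significance, and sizes could still change. Each replicate left out also changed which regions were chosen. The number of outside regions was 2287 with scores of at least 100 and 3122 with equal numbers of best-scored peaks, and ranged from 5025 to 8151 when 1 replicate was left out, with 8151 without replicate 3. With scores of at least 100, H3K4me1 retention was 20.1%, H3K27ac retention 15.85%, outside minus inside for H3K27ac -16.1 points and H3K4me1 minus H3K27ac 4.26 points. H3K27me3 minus H3K9me3 turned to 0.0437 points with scores of at least 100 and was -0.0801 points with equal numbers of best-scored peaks. It ranged from -1.82 to 0.804 points over the replicates left out. Outside minus inside for H3K9me3 was -0.869 points with scores of at least 100 and -1.74 points with equal numbers. Over the replicates left out it ranged from -4.88 to 0.0394 points, the latter without replicate 4. With the regions kept and only the replicate 4 libraries of H3K27me3 and H3K9me3 not read, these differences were 0.631 and 0.0191 points. H3K4me1 minus H3K27ac ranged from -20.8 (without replicate 2) to 44.2 points, and was -9.04 points without the H3K27ac replicate 2 library, an alternative chosen after seeing the data, as were the one with the regions kept and reading H3K79me2 and H3K4me3 in replicates 3 and 4 only. The cause of these changes was not tested. Over the replicates left out, H3K27ac retention ranged from 8.73% to 49.5%, H3K4me1 retention from 28.7% to 52.9%, and outside minus inside from -52.6 to -5.94 points for H3K27ac, from -36.9 to -29.5 points for H3K4me1 and from 0.481 to 0.770 points for H3K27me3. With the replicate block, the exact sign-flip p was 1 for H3K4me1 minus H3K27ac (11.4 points) and 1 for H3K27me3 minus H3K9me3 (-1.25 points). The block could not reach p 0.05 with so few pairs, and the labels do not say that the numbers pair samples. Read depth is unknown, so a region without a peak may still carry the mark.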

Other observations

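On the X chromosome, which the choice left out, 4 of 387 H3K27ac regions met the other conditions. An H3K27ac peak was present at 3 of them in replicate 1 and at 1 in replicate 2, and an H3K4me1 peak at 1 and 2.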
